A study of Mus musculus with 4 samples.

Results

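Collecting duct and ureteric bud cells lacking the (pro)renin receptor were set against the same cells of a wild-type pool on 1 two-colour array. On this array Cy5 labelled the knockout RNA and Cy3 that of wild-type pool 2, so that both were read on the same spots. A second array carried wild-type pool 2 in both dyes, and its ratio was subtracted gene by gene, because a probe can favour 1 dye whatever the sample. The comparison took the probes well above background in either channel of the first array. These were 22142 of 41174 probes, and they represented 17557 of 33390 genes on the array. Of them, 12264 genes (9029 with a symbol) were well above background in both channels of both arrays and could be measured on both sides. The comparison used 2 of the 4 arrays of the series. With 1 array a side there was no replicate of either condition, so genes are described by the size of their difference, with no test.

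All cells were sorted on EGFP at postnatal day 1 from mice with the HoxB7CreEGFP transgene. Knockout mice were PRR flox/flox and wild-type mice were PRR+/+, so both groups carried Cre and the fluorescent protein. The HoxB7 promoter is active in the ureteric bud and its descendants, the collecting ducts, so deletion was aimed at that lineage only. Cells were pooled, how many animals a pool held is not stated in the labels, and 0.5 µg of total RNA entered each labelling. The labels conflict with one another. The titles call the 2 knockout arrays wild type and the 2 wild-type arrays knockout, and the descriptions exchange pools 1 and 2 on the self arrays. Each channel was grouped by its source name, and if the titles were right every direction between knockout and wild type would turn. The knockout pool on either array carries no number in its source label. The 2 knockout channels of the series may therefore hold the same RNA. The wild-type channels are repeated labellings of pools 1 and 2, and channels of the same pool are not replicates of a condition.

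The (pro)renin receptor, encoded by Atp6ap2, binds renin and its precursor and is also an accessory subunit of the vacuolar proton pump, the enzyme that acidifies endosomes, lysosomes and, in intercalated cells, the urine. The ureteric bud branches at its tips under Ret signalling and matures into collecting ducts, in which principal cells recover sodium and water and intercalated cells handle acid. The remaining nephron segments, including the proximal tubule and the loop of Henle, come from a different lineage and would not be labelled by a transgene confined to the ureteric bud.

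Both channels of the shared array carried signal, with 20796 of 41174 probes well above background in Cy5 and 18574 in Cy3. On the self array of pool 2 the counts were 18424 in Cy5 and 16504 in Cy3. No spot was saturated. Spike-in probes, which detect synthetic RNA mixed into the labelling reaction, had a median signal above background of 1786 in the knockout channel. In the 3 channels of pool 2 that median was between 5.60 and 57.6, and its part in the results was not tested. Markers of the sorted lineage were present in both genotypes, beside markers of other cell types. All 8 principal cell markers, all 6 bud tip markers and all 7 markers of the ureteric lineage were well above background in both channels of the shared array. All 5 proximal tubule markers that had a probe, among them Slc34a1, Slc5a2, Aqp1 and Fbp1, were above background in both as well, as were 4 of 5 loop and distal tubule markers. In knockout and in pool 2, 3 of 4 nephron progenitor markers, all 5 urothelial markers and both leukocyte markers with a probe were above background. For stroma these were 5 of 6 markers in knockout and 4 in pool 2, for endothelium 3 and 4 of 5, and for podocytes 1 and 2 of 4. Those below background in both included Nphs1 (podocyte), Six2 (nephron progenitor), Foxd1 (stroma) and Pvalb (distal tubule). The part of other cell types in the results was not tested.

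Atp6ap2, the targeted gene, was lower in the knockout channel. Its log2 level, after quantile normalization over the 7 channels of the series that held signal, was 6.76 in knockout and 7.58 in pool 2 on the shared array. On the self array pool 2 stood at 7.72 in Cy5 and 7.40 in Cy3. All 3 readings of pool 2 therefore lay above the knockout reading. The log2 ratio of Cy5 over Cy3 was -0.84 on the shared array and 0.38 on the self array, a difference of -1.22 on the log2 scale, or 2.33-fold lower. Without the self array the value was -0.84, and with normexp background correction it was -0.88. The knockout channel of the remaining array, which had been hybridised beside pool 1, read 7.21, and pool 1 itself read 7.57 in Cy5 and 7.44 in Cy3. Both knockout channels were thus below the 5 wild-type channels, the nearest pair being 7.21 and 7.40. The wild-type channels hold only pools 1 and 2, so they do not count as separate samples. The position of the probe relative to the floxed exon was not analysed here, and RNA outside the deleted stretch can persist, so this level is a limited check of the labels.

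The shared array differed from the self array across many genes. The standard deviation of log2 ratios over the measured genes was 0.65 on the shared array and 0.20 on the self array. At least 2-fold differences were found in 315 genes that were higher in knockout (2.57% of those measured) and 564 that were lower (4.6%). On the self array 9 genes (0.0734%) had a ratio that far from 1. Large differences leaned towards lower values in knockout, with 36 genes higher and 183 lower by 4-fold or more, and 5 higher and 36 lower by 16-fold or more. Under median centring in place of loess the 2-fold calls were 727 higher and 713 lower, so the lean at 2-fold depended on the scaling. With genes above background in 1 channel included, the counts were 711 and 753.

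**Figure D1:**
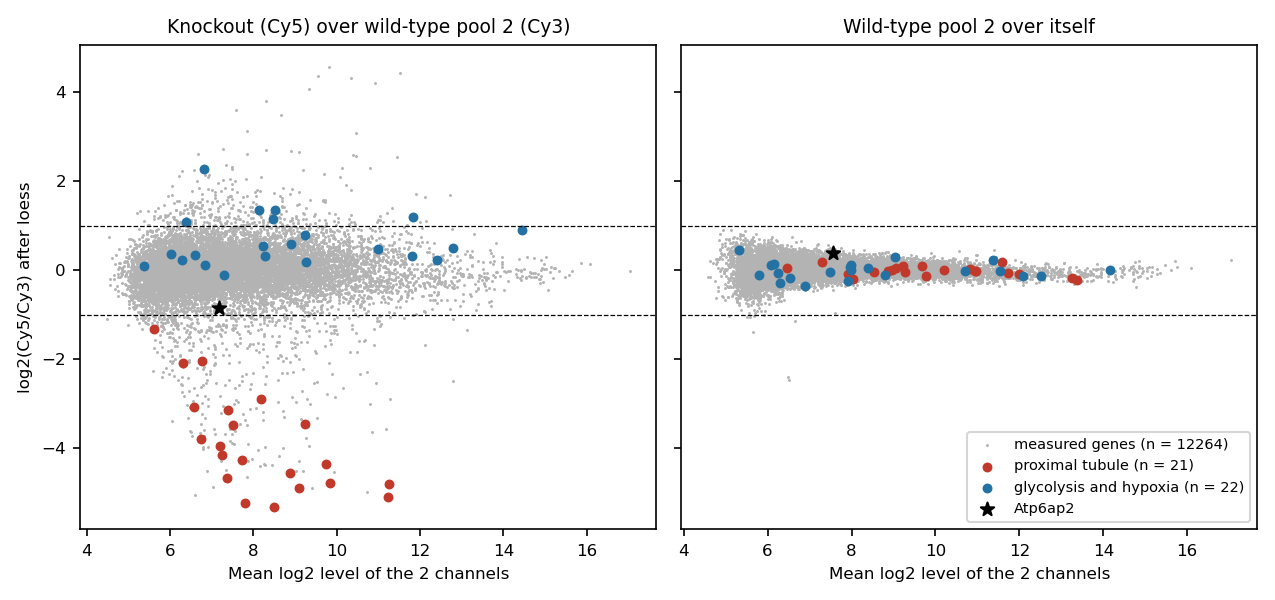
Log2 ratio of Cy5 over Cy3 after loess against the mean log2 level of the 2 channels, for the 12264 measured genes, on the shared array (left) and the self array of pool 2 (right); dashed lines mark 2-fold, red points the 21 proximal tubule genes, blue points the 22 glycolysis and hypoxia genes and the star Atp6ap2. The cloud has a standard deviation of 0.65 on the left and 0.20 on the right, and the proximal tubule genes lie below the lower line on the left and near 0 on the right.

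The error of a single array could be read from probes spotted 5 or more times. For 74 such probes the standard deviation between spots was 0.17 on the shared array and 0.16 on the self array, which gives 0.23 for a difference taken from 1 spot on each. This is the spread within an array and says nothing of the spread between animals or pools. Different probes of a gene agreed less well among the higher genes. Of 91 lower genes with other measured probes, 83 had the same sign in them and 44 were also 2-fold lower. Of 44 higher genes with other probes, 33 had the same sign and 2 were also 2-fold higher. A 2-fold higher value from a single probe is therefore less secure here than a 2-fold lower one.

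Genes of the proximal tubule made up the strongest group. The proximal tubule recovers phosphate, glucose, amino acids and organic anions from the filtrate and makes glucose from small precursors. Of 29 listed genes 21 were measured, and all 21 were at least 2-fold lower in knockout. Over all measured genes 4.6% were 2-fold lower and 2.57% were 2-fold higher. These shares stand beside the counts of every list below. The lists were drawn up with earlier results of these data known, so the counts only describe. The median difference was -4.12 on the log2 scale, against -0.022 over all measured genes. The values ran from -5.29 to -1.39. Slc34a1, the sodium-phosphate cotransporter of the brush border, read 6.81 in the knockout channel and 11.39 in pool 2 on the shared array, with 11.70 and 11.49 on the self array. This was a difference of -5.08, or 33.8-fold lower. Fbp1, a gluconeogenic phosphatase, read 8.75 in knockout against 13.70, 13.35 and 13.41 in the channels of pool 2, 29.2-fold lower. For both genes the 3 pool 2 channels lay close together and the knockout channel stood far below them.

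Of the 15 lowest genes, 8 were on the proximal tubule list, which was drawn up with earlier results of these data known. Spp2, a secreted phosphoprotein, differed by -5.29. Acsm2 and Acsm1, which activate medium-chain fatty acids, differed by -5.23 and -4.99. Others were Hsd3b4 at -4.74, Kap, the androgen-regulated protein of the kidney, at -4.69, Gatm, an enzyme of creatine synthesis, at -4.62, the defensin Defb19 at -4.62, the cytochromes Cyp4a31 at -4.56 and Cyp2d26 at -4.45, the organic anion transporter Slc22a6 at -4.55 and Tmem174 at -4.44. On the self array the ratios of all 15 were within 0.24 of 0, so nearly all of each difference came from the shared array. At the low end of the list Hnf4a, a transcription factor of the proximal tubule, differed by -1.39.

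Wild-type pool 1 did not share the high level of these genes. Slc34a1 read 8.38 in Cy5 and 7.95 in Cy3 of pool 1, and 7.60 in the knockout channel of the remaining array. Fbp1 read 9.86 and 9.98 in pool 1 and 9.39 in that knockout channel. Pool 1 thus lay much nearer to the knockout channels than to pool 2. Summed over the 21 genes, the log2 level was 11.26 in knockout on the shared array and 11.80 in the other knockout channel. It was 12.31 and 12.39 in pool 1, and between 15.41 and 15.58 in pool 2. In Cy5 alone, pool 2 exceeded pool 1 by a median of 3.09 log2 units over these genes. The other knockout channel lay 3.74 below pool 2 and 0.65 below pool 1. These comparisons with pool 2 share its channel with one another and are given as values side by side. In RNA from pooled cells, fewer cells of a type and less RNA per cell cannot be told apart, and for these genes a difference between genotypes and a difference between pools cannot be told apart on the shared array.

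The promoters of 4 of these genes are shown because the lowest genes often held the short motif GTTAAT, in either orientation. The motif was chosen after the sequences had been seen. Each line gives the 150 bases before the annotated start, 5′ to 3′ on the gene's strand, from the RefSeq table of GRCm38.p6, with the motif or its reverse complement ATTAAC in capitals. The stretch of Slc34a1 is chr13:55399498-55399647 on the plus strand, that of Slc22a6 chr19:8617846-8617995 on the plus strand, that of Cyp2d26 chr15:82794246-82794395 on the minus strand and that of Hsd3b4 chr3:98510568-98510717 on the minus strand.
Slc34a1: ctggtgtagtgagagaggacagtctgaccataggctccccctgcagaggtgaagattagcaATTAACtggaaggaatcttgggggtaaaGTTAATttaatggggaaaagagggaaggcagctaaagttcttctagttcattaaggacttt
Slc22a6: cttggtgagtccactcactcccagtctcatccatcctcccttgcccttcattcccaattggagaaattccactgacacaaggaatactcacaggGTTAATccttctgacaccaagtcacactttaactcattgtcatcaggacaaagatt
Cyp2d26: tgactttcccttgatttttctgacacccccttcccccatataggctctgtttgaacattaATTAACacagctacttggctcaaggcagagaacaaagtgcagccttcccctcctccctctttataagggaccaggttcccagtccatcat
Hsd3b4: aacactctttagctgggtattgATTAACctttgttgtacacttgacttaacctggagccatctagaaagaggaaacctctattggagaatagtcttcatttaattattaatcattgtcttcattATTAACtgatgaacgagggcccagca

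Over the 250 bases before the start, the motif occurred in 5 of the 10 lowest genes that had an entry and in 0 of 12 of the 15 highest. It occurred in 6 of 18 measured proximal tubule genes. Among all genes at least 2-fold lower it was found in 48 of 368, or 13.0%, and among all genes at least 2-fold higher in 1.87%. The share was 5.22% over all measured genes with an entry and 7.49% over all 27025 genes with one. A match is a description of these letters and not a site.

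**Figure D2:**
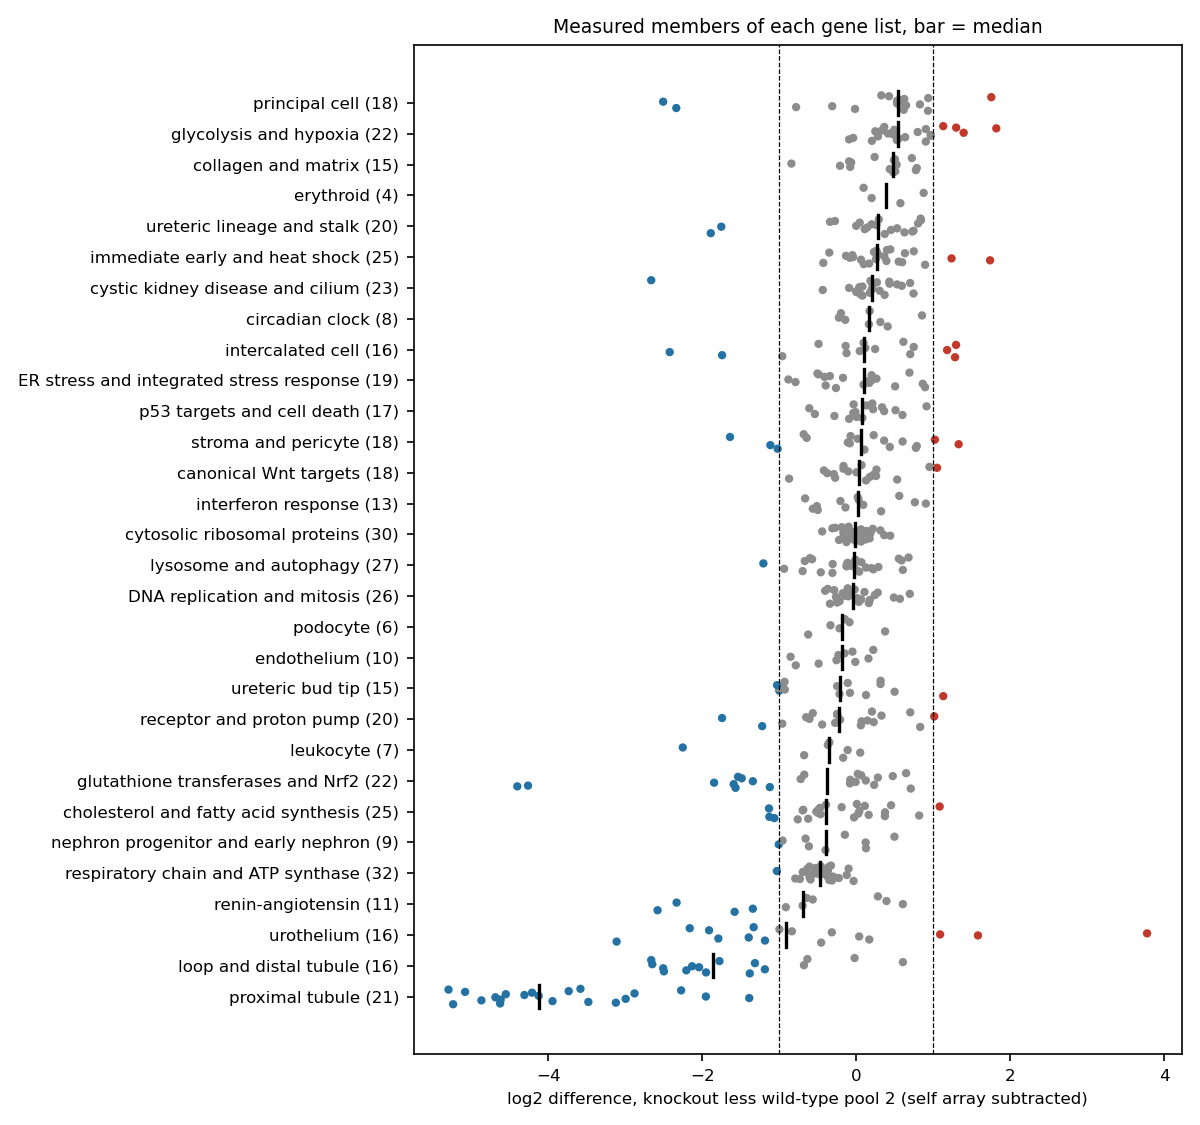
Log2 difference between knockout and wild-type pool 2 (x axis, self array subtracted) for every measured member of 30 gene lists (y axis, number measured in brackets); each point is a gene, coloured where past 2-fold (dashed lines), and bars are medians. The 21 proximal tubule genes all lie below the lower line with a median of -4.12, the loop and distal tubule genes have a median of -1.86, and most other medians lie within 0.6 of 0.

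Loop of Henle and distal tubule genes were also lower. Of 16 measured genes 12 were at least 2-fold lower and none was 2-fold higher, with a median of -1.86. Umod, which encodes uromodulin, the main protein of normal urine, read 8.87 in knockout and 11.43, 11.46 and 11.38 in pool 2. Slc12a1, the sodium-potassium-chloride cotransporter blocked by loop diuretics, read 8.24 against 10.68, 10.73 and 10.62, a difference of -2.65. Cldn10, a claudin of tight junctions, differed by -2.50. In pool 1 Umod read 9.31 and 9.16 and Slc12a1 8.61 and 8.39, again nearer to knockout than to pool 2. Kcnj1, the potassium channel that loop and principal cells both express, differed by -2.51.

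The renin-angiotensin system, which the receptor's ligand starts, was covered by 11 measured genes. None was 2-fold higher, 4 were 2-fold lower and the median was -0.70. Enpep, the aminopeptidase that trims angiotensin II, read 5.15 in knockout and 7.44, 7.28 and 7.38 in pool 2, a difference of -2.33. Ace, the converting enzyme, differed by -1.58, and Agtr1a, the type I receptor, by -1.34. Enpep read 5.26 and 5.20 in pool 1, so it too was low there. Ren1, renin itself, differed by -0.64 and was dim in every channel, with 5.13 in knockout and between 5.45 and 5.81 in pool 2. Agt, its substrate, was above background in the pool 2 channel only.

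The vacuolar proton pump, which the receptor serves as an accessory protein, showed no common shift. Of 20 measured genes of the receptor and pump list 1 was 2-fold higher and 2, one of them Atp6ap2, were 2-fold lower, with a median of -0.23. Atp6v1b1, the B subunit typical of intercalated cells, read 5.64 in knockout and between 7.33 and 7.43 in pool 2, a difference of -1.74. In the other knockout channel it read 5.64 and in pool 1 it read 5.70 and 6.08. Atp6v0a4, the matching membrane subunit, differed by -0.96, with another probe at -2.12. Atp6v1c2 was 2.02-fold higher, at 8.06 in knockout and between 7.07 and 7.32 in pool 2. Atp6ap1, the second accessory subunit, had a difference of 0.83. The lysosome and autophagy list, downstream of acidification, had a median of -0.03 over 27 genes with 1 past 2-fold. That gene was Lamp2 at -1.21, whose other probe read 0.14.

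Principal cell genes were mostly higher in knockout than in pool 2, by less than 2-fold. Of 18 measured genes 13 had a positive difference, with a median of 0.55. In Cy5, the median was 0.11 for the other knockout channel against pool 1, and -0.34 for pool 2 against pool 1. Aqp2, the vasopressin-regulated water channel, read 11.99 in knockout and 11.08, 10.89 and 10.99 in pool 2. The other knockout channel read 11.75, and pool 1 read 11.33 and 11.11. Both knockout channels lay above all 5 wild-type channels. Scnn1g, a subunit of the epithelial sodium channel, read 10.01 in knockout, between 8.81 and 8.94 in pool 2, 9.79 in the other knockout channel, and 9.52 and 9.27 in pool 1. Its difference was 0.93, the same as for Aqp2.

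Sgk1, the aldosterone-responsive kinase that keeps sodium channels at the membrane, was the principal cell gene past 2-fold. It read 9.99 in knockout and 8.22, 8.28 and 8.31 in pool 2, a difference of 1.75, or 3.37-fold higher. The other knockout channel read 9.74 and pool 1 read 8.67 and 8.72, so the 2 knockout channels stood apart from all 5 wild-type ones by more than 1 log2 unit. In the opposite direction within the list was Kcnj1 at -2.51, a gene shared with tubule segments outside the collecting duct. It read 7.87 in knockout, 10.47 in pool 2 on the same array, and 8.19 and 8.46 in pool 1.

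Intercalated cell genes split. Of 16 measured genes 3 were 2-fold higher, 2 were 2-fold lower and the median was 0.11, which was -0.05 when the self array of pool 1 was subtracted instead. Rhcg, an ammonia transporter, read 12.08 in knockout and between 10.60 and 10.75 in pool 2, a difference of 1.30. Aqp6, a water channel of intracellular vesicles, had a difference of 1.28, and Car15, a membrane carbonic anhydrase, one of -2.42. Car15 read 7.17 in knockout, 9.43 in pool 2 on the same array and 6.33 in Cy5 of pool 1.

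In the ureteric bud tip list, 5 of 15 measured genes were higher and 10 lower, with a median of -0.22. Etv4, a transcription factor that acts downstream of Ret, read 7.76 in knockout and 8.75, 8.80 and 8.88 in pool 2, a difference just past 2-fold. The other knockout channel read 8.03 and pool 1 read 8.35 and 8.08. Gfra1, the co-receptor of Ret, lay just short of 2-fold at -0.997. It read 8.20 in knockout and at most 9.28 in pool 2, 8.56 in the other knockout channel, and 8.91 in Cy5 of pool 1. For both genes the knockout channels were the lowest of the 7, although for Etv4 the gap between 8.03 and 8.08 was within the spread between spots. Slco4c1, an organic anion transporter, differed by -1.03. Aldh1a3, which makes retinoic acid, read 10.17 in knockout and between 8.92 and 9.20 in pool 2, a difference of 1.13. It read 10.13 in the other knockout channel, and 9.84 and 9.99 in pool 1. In the wider ureteric lineage list 15 of 20 genes were higher, with a median of 0.28 and none 2-fold higher. Cldn4, a claudin, was lower by 1.89 on the log2 scale. It read 6.37 in knockout and 8.17 in pool 2 on the shared array, but 6.28 and 6.19 in pool 1, so only pool 2 was high.

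Urothelial genes, which mark the lining of the pelvis and ureter, differed in both directions. Of 16 measured genes 3 were 2-fold higher and 7 were 2-fold lower, with a median of -0.92. Krt20, a keratin of superficial urothelial cells, read 6.14 in knockout and 8.94, 9.02 and 8.95 in pool 2, a difference of -3.11. The other knockout channel read 7.15 and both channels of pool 1 read 7.70. Upk3a, a uroplakin of the urothelial plaque, read 9.44 in knockout, between 11.53 and 11.70 in pool 2, 10.01 in the other knockout channel, and 10.93 and 10.95 in pool 1. For both genes the 2 knockout channels were the lowest, pool 1 stood between, and pool 2 was highest.

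The 3 urothelial genes past 2-fold in the other direction were small proline-rich proteins, which are cross-linked into the envelope of squamous epithelia. Sprr2f read 9.59 in knockout and 5.59, 6.13 and 6.33 in pool 2, a difference of 3.77, or 13.7-fold higher. It read 8.97 in the other knockout channel and 7.45 and 7.55 in pool 1. Sprr2b differed by 1.58 and Sprr2e by 1.09. Their relative Sprr1a differed by -1.40, so the family did not move as one. Members of the Sprr2 family have similar sequences, and cross-hybridisation between their probes was not tested.

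Genes of glycolysis and the hypoxia response were higher in knockout as a group. Of 22 measured genes 20 had a positive difference, 4 were 2-fold higher and none was 2-fold lower, with a median of 0.54. Slc16a3, which exports lactate, read 8.11 in knockout and 5.53, 5.70 and 4.93 in pool 2, a difference of 1.82. Pfkfb3, which drives flux through phosphofructokinase, read 8.81 against 7.44, 7.46 and 7.52, a difference of 1.39. Vegfa, the endothelial growth factor induced by low oxygen, differed by 1.13, while its other probes had a median of 0.46. It read 8.81 in the other knockout channel, and 8.69 and 8.56 in pool 1. Slc2a1, the basal glucose transporter, read 9.21 against 7.84, 7.97 and 7.95. The other knockout channel read 7.69 for Slc16a3, 8.53 for Pfkfb3 and 8.95 for Slc2a1. Pool 1 read 6.47 and 6.74 for Slc16a3, 7.98 and 8.11 for Pfkfb3, and 8.29 and 8.19 for Slc2a1. Both knockout channels lay above all 5 wild-type channels, which hold only pools 1 and 2, for these 3 genes.

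**Figure D3:**
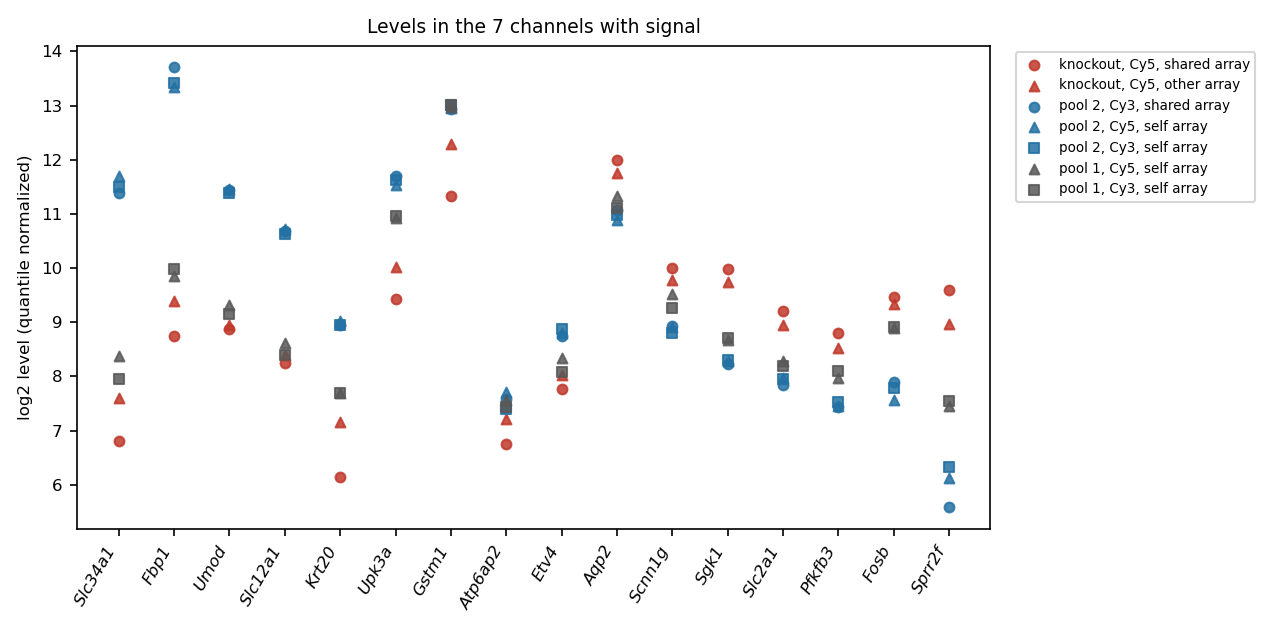
Log2 level, quantile normalized over the 7 channels with signal (y axis), of 16 genes (x axis); red marks the knockout channels, blue the channels of wild-type pool 2 and grey those of pool 1, with circles for the shared array. Tubule genes such as Slc34a1, at 6.81 in knockout and 11.39 in pool 2 on the shared array, are high in blue only, whereas for Sgk1 and Slc2a1 both red points lie above all others.

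Genes of oxidative phosphorylation differed in the opposite direction and less. All 32 measured genes of the respiratory chain and ATP synthase had a negative difference, with a median of -0.47 and a range from -1.03 to -0.04. Ndufb8, a subunit of complex I, was past 2-fold, at 11.89 in knockout and between 12.58 and 12.81 in pool 2. In pool 1 it read 12.04 and 11.96. Cytosolic ribosomal proteins, as another set of abundant transcripts, had a median of -0.01 over 30 genes with loess, but -0.51 with median centring, which moved the respiratory chain median to -0.77. The size for ribosomal genes therefore depended on the scaling. Their median was positive under 3 of 10 other settings, at most 0.12 with the self array of pool 1 subtracted. Against pool 1, the other knockout channel had a median of 0.06 for the respiratory chain.

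Glutathione metabolism held 9 of 22 measured genes that were 2-fold lower, with a median of -0.38 and none 2-fold higher. Gsta1 and Gsta2, transferases of the alpha class, differed by -4.40 and -4.26, and in pool 1 Gsta1 read 7.41 and 7.35 beside 7.07 in knockout and 11.32 in pool 2. The mu class behaved differently with respect to pool 1. Gstm1 read 11.33 in knockout and 12.93, 12.95 and 13.01 in pool 2, a difference of -1.59, with another probe at -1.75. It read 12.29 in the other knockout channel, and 12.97 and 13.01 in pool 1. Gstm3 read 9.62 in knockout, between 11.37 and 11.46 in pool 2, 10.52 in the other knockout channel, and 11.25 and 11.30 in pool 1. For Gstm1 and Gstm3 both wild-type pools were level and both knockout channels were below them. These transferases have close paralogs, and cross-hybridisation between them was not tested.

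The immediate early and heat shock list, whose genes respond within minutes to growth factors, dissociation or heat, had a median of 0.27 over 25 genes, with 2 past 2-fold and both higher. Fosb, a subunit of the AP-1 transcription factor, read 9.47 in knockout and between 7.57 and 7.90 in pool 2, with 9.34 in the other knockout channel and 8.89 and 8.90 in pool 1. Hspa1a, an inducible chaperone, had a difference of 1.24 and its other probes a median of 0.94. Its level was 9.30 in knockout, between 8.02 and 8.21 in pool 2, 9.14 in the other knockout channel, and 8.48 and 8.46 in pool 1. The part of these genes in the other differences was not tested.

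Genes of cholesterol and fatty acid synthesis had a median of -0.39 over 25 genes, with 3 lower and 1 higher by 2-fold. Ebp, a late enzyme of cholesterol synthesis, differed by -1.13, and Scd2, a fatty acid desaturase, by 1.08. Ebp read 9.95 in knockout, between 10.81 and 11.11 in pool 2, and 9.69 and 9.74 in pool 1. Collagen and matrix genes had a median of 0.48 over 15 genes with none past 2-fold. In Cy5, their median was -0.21 for the other knockout channel against pool 1, and -0.47 for pool 2 against pool 1. Stromal genes had a median of 0.06 over 18, with 3 lower and 2 higher by 2-fold. Rgs5, a marker of pericytes, read 4.93 in knockout, between 6.61 and 6.84 in pool 2, 5.10 in the other knockout channel, and 6.16 and 5.68 in pool 1. Dcn, the matrix protein decorin, differed by 1.33. The summed log2 level of the stromal genes was 11.70 in knockout, between 11.53 and 11.56 in pool 2, and 12.28 and 12.32 in pool 1. Summed endothelial genes stood at 10.35 in knockout and 10.46 to 10.54 in pool 2.

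Lists for cell division, stress and signalling lay near the median of all genes. Replication and mitosis had a median of -0.04 over 26 genes with none past 2-fold, and canonical Wnt targets 0.03 over 18 with 1 past 2-fold, Rnf43 at 1.05. The ER stress list stood at 0.09 over 19 genes, p53 targets and cell death at 0.08 over 17 and interferon response genes at 0.02 over 13, all with none past 2-fold. The ER stress median was -0.18 when a gene's probes were averaged, and the interferon median was negative under 7 of 10 other settings, so neither has a settled direction. The list of cystic kidney disease and cilium genes had a median of 0.20 over 23, and its gene past 2-fold was Umod. The clock list stood at 0.17 over 8 genes. Leukocyte genes had a median of -0.35 over 7, with H2-Ab1, a class II antigen, at -2.25 and its other probes at -1.43. Podocyte genes had -0.18 over 6, nephron progenitor genes -0.40 over 9, endothelial genes -0.19 over 10 and erythroid genes 0.39 over 4.

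The genes highest in knockout belonged to no single list. Ddx25, an RNA helicase best known from testis, read 13.74 in knockout and 9.29, 9.53 and 9.33 in pool 2, a difference of 4.19, or 18.2-fold higher. It read 12.63 in the other knockout channel, and 11.92 and 12.04 in pool 1. Usp29, a deubiquitinase from an imprinted locus, read 10.47 in knockout, between 6.42 and 6.87 in pool 2, 9.10 in the other knockout channel, and 7.81 and 7.72 in pool 1. For both genes the order of the channels was knockout, then pool 1, then pool 2. Mid1, an X-linked ubiquitin ligase, differed by 2.65 but read 9.67 and 10.17 in pool 1 against 9.68 in knockout, so only pool 2 was low. Cbr1, a carbonyl reductase, and Ttc3 showed the same pattern, with differences of 2.37 and 2.02 and Cy5 levels of pool 1 of 9.35 and 9.57 beside 9.19 and 9.25 in knockout.

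Several of the highest values rested on 1 probe among others that did not follow. Myo1e, a motor protein, differed by 3.79 while its other probes had a median of 0.11. Pip4p2, a lipid phosphatase, differed by 3.00 with another probe at 0.49, and Nfat5, the transcription factor of the osmotic response, by 2.02 with another at 0.86. Pdpk1 and Itga1, named here after their values were seen, differed by 4.13 and 2.94 while their other probes stood at -0.37 and -1.18. Cacul1 differed by 2.35 only through the self array, where its ratio was -2.47, whereas its ratio on the shared array was -0.11. The other genes among the highest were Ppp1r3c, which targets a phosphatase to glycogen, at 2.42, Tgm5, a transglutaminase, at 2.26, Trim39 at 2.04, Spink8, a protease inhibitor, at 2.03, and Msln, mesothelin, at 1.93.

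Genes above background in only 1 channel of the shared array have a bound. It sets the brighter channel against the higher of the dim reading and the lowest level well above background. On this basis 194 of 1117 genes seen only in pool 2 were at least 2-fold lower in knockout, 123 of them with a symbol, and 423 of 2749 genes seen only in knockout were at least 2-fold higher, 43 with a symbol. Most genes with a bound in the higher direction therefore had no symbol. The transporters Slc17a1, Slc22a2 and Slc7a9 were at least 14.6-fold, 12.5-fold and 12.5-fold lower than in pool 2. In Cy5, pool 2 exceeded pool 1 by 3.32, 3.71 and 2.88 log2 units for these transporters. The other knockout channel differed from pool 1 by -1.58, -1.49 and -1.01. Cyp4a14 and Cyp24a1, the latter the enzyme that degrades active vitamin D, were at least 10.3-fold and 10.2-fold lower, and Slc18a1, Clrn3 and Sucnr1, the succinate receptor, at least 10.2-fold, 10.1-fold and 9.37-fold. For Cyp4a14, Cyp24a1, Clrn3 and Sucnr1 pool 2 exceeded pool 1 by 2.10, 3.00, 3.62 and 2.83. The other knockout channel differed from pool 1 by -1.13, -0.91, 0.50 and -0.85 for these genes. Slc18a1 had no value for pool 1. AU018091 was at least 10.3-fold higher, and the next, Rph3al, at least 3.78-fold. Gab3 and Crisp1 were at least 3.38-fold and 3.08-fold higher. For AU018091, Rph3al, Gab3 and Crisp1 pool 2 differed from pool 1 in Cy5 by -3.18, -0.71, -0.98 and 0.04. The other knockout channel differed from pool 1 by 1.06, 1.49, 0.88 and 1.79 for these genes. These bounds, and the counts of them, do not subtract the self array, on which the log2 ratios of the genes just named lay between -0.19 and 0.27. For Dcaf12l2, Strip2 and 1700012A03Rik it was 0.58, 1.33 and 0.57, in the direction of the difference, so no bound is given for them.

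A comparison that shared no array with this one set the other knockout channel against pool 1, Cy5 against Cy5. It was chosen after the data were seen, and it compares arrays and not channels of 1 array. Of 12107 genes with a value, 217 (1.79%) were at least 2-fold higher in knockout and 39 (0.322%) at least 2-fold lower. Signal well above background was not required in the other knockout channel or in pool 1. Genes dim there are therefore included in these counts and in the overlaps. The overlap of higher genes was 17, which is 5.47% of those higher than pool 2 and 7.83% of those higher than pool 1. The overlap of lower genes was 19, which is 3.44% of those lower than pool 2 and 48.7% of those lower than pool 1. The larger lower list against pool 2 thus held many genes that were not 2-fold lower against pool 1. The 315 genes higher than pool 2 had a median of 1.29 there and 0.12 against pool 1, and the 564 lower genes had medians of -1.50 and -0.16. In Cy5, pool 2 differed from pool 1 by medians of -1.27 and 1.65 over the same 2 sets.

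**Figure D4:**
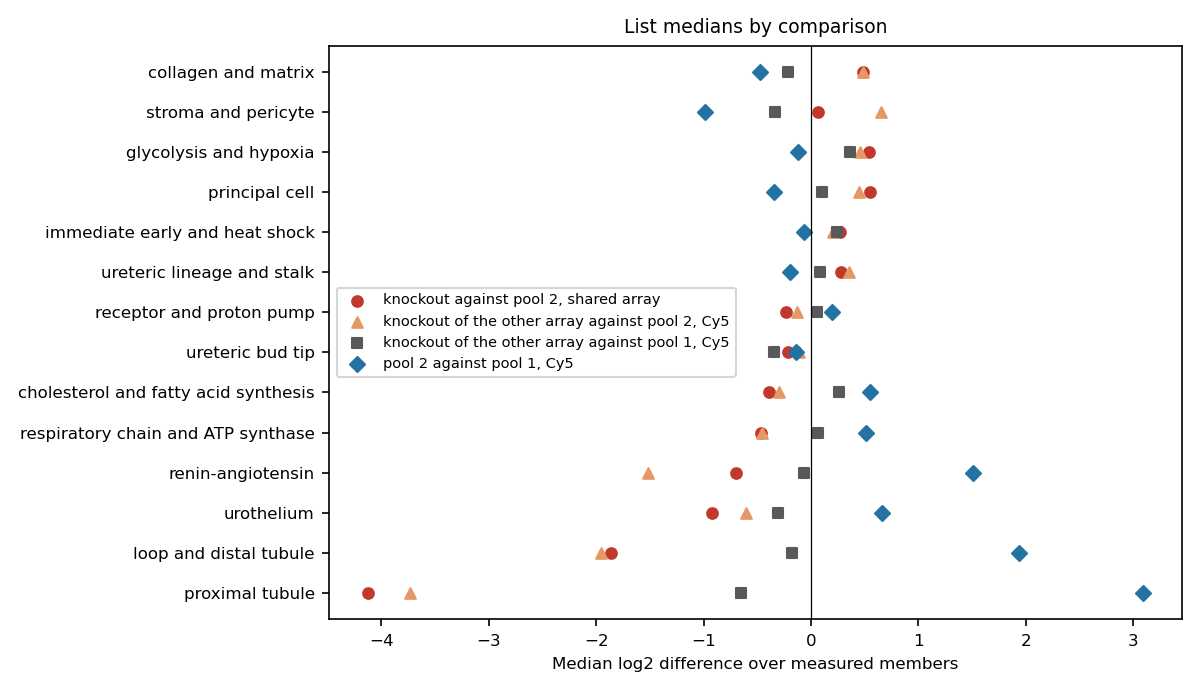
Median log2 difference over measured members (x axis) of 14 gene lists (y axis) in 4 comparisons: knockout against pool 2 on the shared array (circles), and, Cy5 against Cy5, the other knockout channel against pool 2 (triangles) or pool 1 (squares) and pool 2 against pool 1 (diamonds). For the proximal tubule the values are -4.12, -3.74, -0.65 and 3.09, and for glycolysis and hypoxia they are 0.54, 0.46, 0.36 and -0.12; the 3 Cy5 comparisons share channels with one another.

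Of the genes 2-fold higher in both, 12 had a symbol, and they were named here after their values were seen. Besides Sgk1, Slc16a3, Sprr2f, Sprr2e, Usp29, Tgm5 and Spink8 they were Xist and the 4 genes whose other probes did not follow (Myo1e, Pip4p2, Pdpk1 and Itga1). Tgm5 read 8.88 in knockout and between 5.00 and 6.78 in pool 2, with 7.78 in the other knockout channel, and 6.40 and 6.79 in pool 1. Genes 2-fold lower in both were largely tubular. They included the amino acid transporter subunit Slc3a1 at -3.73 against pool 2 and -1.21 against pool 1, Aadac at -4.00 and -1.05, the sulfate transporter Slc26a1 at -3.01 and -1.08, the inositol transporter Slc5a11 at -2.86 and -1.35, and the sulfotransferase Sult1d1 at -3.62 and -1.14. Agtr1a, at -1.34 and -1.04, and Rgs5, at -1.64 and -1.48, were also among them. Some of these genes were dim on the arrays with pool 1. Agtr1a read 4.48 in the other knockout channel, and 5.18 in Cy5 but 4.27 in Cy3 of pool 1. For Slc3a1 the same channels read 5.03, 5.87 and 5.01, so for both genes the Cy3 channel of pool 1 did not follow. For Rgs5 they read 5.10, 6.16 and 5.68. A further 3 genes were lower than pool 2 but higher against pool 1, among them Mettl7b at -1.23 and 2.64.

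The pools also differed in a gene tied to the sex of the animals. Xist, the RNA expressed from the inactive X chromosome, read 7.04 in knockout, between 5.70 and 5.96 in pool 2, 6.34 in the other knockout channel, and 4.83 and 5.08 in pool 1. The Y-linked genes Ddx3y and Eif2s3y differed by 0.32 and 0.81 between knockout and pool 2. Eif2s3y read 6.58 in knockout, between 5.70 and 6.11 in pool 2, and 7.04 and 6.74 in pool 1. The part of sex composition in the other differences was not tested.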

How the data were processed

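Median spot intensities and local background medians in Cy3 and Cy5 were deposited by the authors as read with Agilent Feature Extraction 10.7.3.1, per the file headers. The authors' log10 ratio, per the file headers, sets Cy5 over Cy3 in the software's processed signals. Flags in the same deposited files mark spots well above background, saturated or non-uniform. The number of arrays, 1 a side, limits the precision of every value.

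Background medians were subtracted, loess was run within each array with control spots at weight 0 (limma 3.58.1, R 4.3.3), spots of a probe were averaged, and the brightest probe stood for a gene. The difference is the log2 ratio of the shared array less that of the self array. Of 41174 probes, 22951 matched a symbol through accessions in a RefSeq table of GRCm38.p6, and the others kept the file's name. Levels across channels, and Cy5 against Cy5 comparisons, were quantile normalized. A dark patch of 454 spots on the self array of pool 1 was left out of differences that used that array. The levels given per channel were not masked in this way.

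The text names Atp6ap2, the 15 largest differences each way among genes with a symbol whose other probes, where measured, had a median of the same sign, the 8 largest bounds each way and up to 4 members of each of 30 lists. A few genes chosen by this rule are not reported here. Genes named outside this rule, among them the Sprr2 relatives, the marker genes, the genes shared with pool 1 and the sex-linked genes, were chosen after their values were seen. The members and lists were chosen with earlier results of these data known. Alternatives tried were other background, scaling, dye, filter and probe rules and the deposited ratio.

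The steps were tested on 15984 simulated probes. The self array of pool 2, with small random noise added, stood for the shared array and was then set against itself. True log2 changes of -2, -1, 1 and 2 came back as medians of -1.49, -0.67, 0.80 and 1.70. With the software's background subtraction they came back as -1.93, -0.91, 0.92 and 1.95. Of the unchanged probes 0 passed 2-fold. The spread between separate hybridisations was absent, so that count cannot tell how many unchanged genes pass 2-fold on the real arrays. Negative controls kept a median Cy3 signal above local background of 24 on the shared array and 30.5 on the self array, against 3 and 3.5 in Cy5. Differences are therefore likely to be understated, and by how much at each brightness was not tested.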

Additional observations from a re-analysis of the deposited data

How the results depend on the processing

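The count of genes 2-fold higher (315) was 166 with normexp (offset 50), 727 with median centring, 560 with the software's processed signals and with the deposited series table, 561 with the software's background-subtracted signals, a setting added after the data were seen, and 711 with genes above background in either channel. The count of genes 2-fold lower (564) was 342 with normexp and between 523 and 776 otherwise. The share of 2-fold genes that were higher, 35.8% as reported, was 50.5% with median centring and 48.6% with the wider filter. Median centring put the median of all genes at 0.066. The Atp6ap2 difference was -0.88 with normexp and -0.84 with the self array not subtracted. Of the named genes described above Cacul1 changed sign, at -0.11 with the self array not subtracted and -0.51 with that of pool 1. Nr1d2, Slc4a1 and Arntl, chosen by the naming rule but not described above, changed sign under 5, 3 and 2 of 10 settings. Others did so under 1, among them Pkd2, at -0.12 with a gene's probes averaged. For these changes the cause was not tested. Of 30 list medians, 23 had the same sign under all 10 settings, and the other 7 (intercalated cell, replication, ribosomal, Wnt, ER stress, lysosome and interferon) lay within 0.11 of 0 as reported. No paired analysis was possible because each group holds 1 array. Standard deviations on the self array ran from 0.29 among the 3066 dimmest genes to 0.12 among the 3066 brightest, so dim genes are the least precise. Leaving out a replicate was not possible for the same reason.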
